A study of Mus musculus with 3 samples.

Results

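The unfolded protein response and the integrated stress response were described across 3 mouse tumour cell lines as a module of 39 genes. The members were taken by gene symbol, and all 39 were listed in all 3 deposited tables, among 15529 genes with a symbol in any table. They were treated as 2 branches with a small group above them: 18 chaperone and degradation genes of the endoplasmic reticulum (ER), 16 genes of the branch of the transcription factor ATF4, and 5 sensors and kinases. The lines were B16-F1 (skin melanoma, C57BL/6J mouse, grown in DMEM), Cloudman S91 (skin melanoma, DBA mouse, grown in DMEM) and 4T1 (mammary carcinoma, BALB/cfC3H mouse, grown in RPMI), each with 10% serum. Each line was 1 library of polyadenylated RNA, the labels name no stress treatment, and tumour type, strain and medium cannot be told apart between 4T1 and the melanoma lines.

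When unfolded proteins build up in the ER, 3 membrane sensors respond. ATF6 is cut to release a transcription factor, IRE1 (gene Ern1) splices the messenger of Xbp1, and both pathways are known to raise chaperones and degradation factors. PERK (gene Eif2ak3) phosphorylates the translation factor eIF2, as does GCN2 (gene Eif2ak4) when amino acids run short. This lowers general translation and lets Atf4 messenger be translated, and ATF4 then raises genes of amino acid supply, of feedback and of cell death.

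The response elements known to carry these 2 branches were looked for in the reference promoters, from 250 bases before to 50 bases after each start (RefSeq, GRCm38.p6). Members and elements were both chosen from what is known of these pathways. The shares of members with an element are therefore a description and not independent support for the branches. Promoters of 36 members were searched, and those of Hyou1, Manf and Atf6 were not analysed here. The ER stress response element ERSE, searched on either strand as CCAAT, then 9 unspecified bases, then CCACG, is bound by ATF6 together with NF-Y. It was present in 8 of the 16 chaperone and degradation genes with a promoter (50%), in 0 of 16 ATF4 branch genes, and in 37 of all 27025 genes (0.137%, or 0.119% of all 32851 promoters). The 8 genes were Hspa5, Hsp90b1 (2 matches), Calr, Canx, Pdia6, Dnajc3, Creld2 and Syvn1. The matches are shown with 10 bases on each side, in the direction of the element, with its fixed letters in capitals.
Hspa5, chr2:34772015-34772053 (+ strand): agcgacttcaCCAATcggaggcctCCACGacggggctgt
Hsp90b1, first match, chr10:86705628-86705666 (- strand): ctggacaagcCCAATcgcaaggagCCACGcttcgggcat
Hsp90b1, second match, chr10:86705523-86705561 (+ strand): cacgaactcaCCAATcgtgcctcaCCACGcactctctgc
Calr, chr8:84847065-84847103 (+ strand): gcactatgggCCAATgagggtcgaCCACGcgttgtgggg
Canx, chr11:50325790-50325828 (- strand): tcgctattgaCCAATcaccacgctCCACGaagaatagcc
Pdia6, chr12:17266481-17266519 (+ strand): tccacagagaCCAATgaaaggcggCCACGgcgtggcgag
Dnajc3, chr14:118937817-118937855 (+ strand): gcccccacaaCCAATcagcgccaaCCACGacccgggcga
Creld2, chr15:88819510-88819548 (- strand): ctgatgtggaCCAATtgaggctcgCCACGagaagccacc
Syvn1, chr19:6046522-6046560 (+ strand): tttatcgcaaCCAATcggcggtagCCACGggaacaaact

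A second form, ERSE-II, searched on either strand as ATTGG, then 1 unspecified base, then CCACG, was found in Dnajb11 and Herpud1, and in 12 of all 27025 genes (0.0444%). Counting either form, 10 of the 16 chaperone and degradation genes held an element, against 0 of the 16 ATF4 branch genes. The 2 matches are shown in the same way, with 14 bases on each side. The match in Dnajb11 begins after the start of transcription.
Dnajb11, chr16:22857838-22857876 (+ strand): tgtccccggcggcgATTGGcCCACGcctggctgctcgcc
Herpud1, chr8:94386363-94386401 (+ strand): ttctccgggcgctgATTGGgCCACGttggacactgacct

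The element bound by ATF4 with a C/EBP partner, abbreviated CARE, was searched as TGATGNAA on either strand. It was present in 6 of 16 ATF4 branch genes (37.5%), in 1 of 16 chaperone and degradation genes (Herpud1, 6.25%), and in 1219 of all 27025 genes (4.51%, or 3.97% of all promoters). Among 6238 genes at FPKM 10 or more in some line, 2.50% held CARE and 0.240% held ERSE. The UPRE, TGACGTGG, known to be bound by XBP1 and ATF6, was in 0 members and 0.714% of all genes. The 30-base stretches around CARE in the ATF4 branch are shown in the direction of the element. The match in Trib3 begins after the start of transcription, and that in Vldlr belongs to the second of 2 listed starts.
Atf3, chr1:191183425-191183454 (+ strand): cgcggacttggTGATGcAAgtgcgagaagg
Nupr1, chr7:126625562-126625591 (+ strand): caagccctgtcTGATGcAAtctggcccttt
Trib3, chr2:152344028-152344057 (+ strand): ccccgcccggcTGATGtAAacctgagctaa
Asns, chr6:7693214-7693243 (- strand): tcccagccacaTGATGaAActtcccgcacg
Chac1, chr2:119351038-119351067 (- strand): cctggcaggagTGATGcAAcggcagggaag
Vldlr, chr19:27216809-27216838 (- strand): gctaggagcgcTGATGcAActattgctgct

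For context, 250 bases before the start of 1 gene of each branch are given in the direction of the gene, with the fixed letters of the match in capitals. Hspa5, the main ER chaperone, has a match that begins 65 bases before the start, and Asns, an enzyme of amino acid supply, has one that begins 23 bases before it. A match describes the letters of the reference genome and is neither a bound site nor a cause, and the lines' own DNA was not read.
Hspa5, chr2:34771840-34772089 (+ strand): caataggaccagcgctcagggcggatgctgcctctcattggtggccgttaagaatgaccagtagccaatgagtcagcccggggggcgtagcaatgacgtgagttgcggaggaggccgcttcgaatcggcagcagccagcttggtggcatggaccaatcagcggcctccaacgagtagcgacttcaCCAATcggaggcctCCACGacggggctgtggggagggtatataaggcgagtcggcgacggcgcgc
Asns, chr6:7693210-7693459 (- strand): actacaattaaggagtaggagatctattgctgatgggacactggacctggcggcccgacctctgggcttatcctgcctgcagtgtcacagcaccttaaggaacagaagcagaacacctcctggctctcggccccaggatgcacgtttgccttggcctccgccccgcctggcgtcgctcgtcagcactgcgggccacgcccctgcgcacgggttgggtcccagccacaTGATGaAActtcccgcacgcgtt

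**Figure D1:**
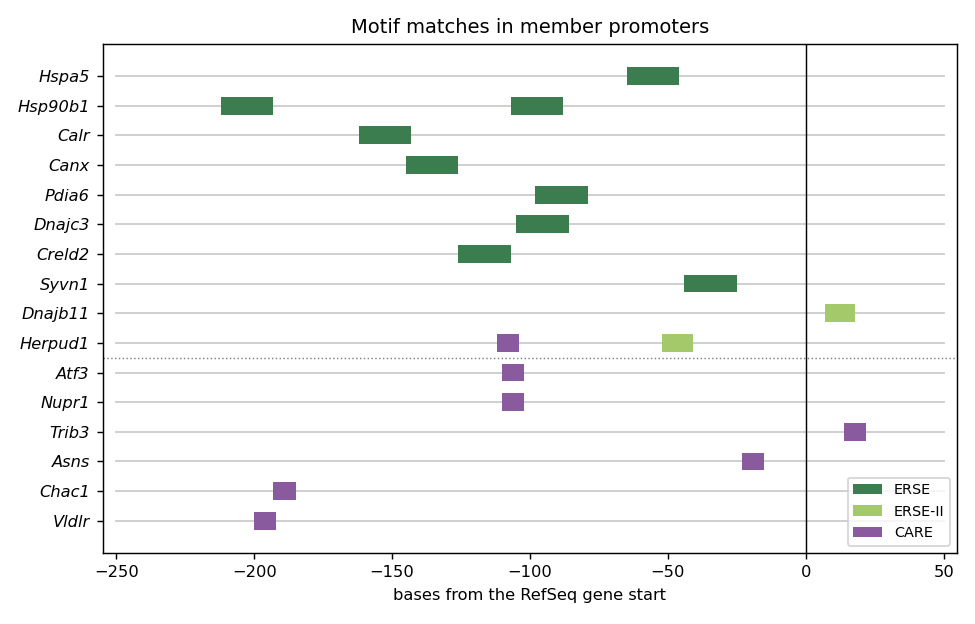
Position of each ERSE, ERSE-II and CARE match in the reference promoters of the members that hold one, in bases from the start of transcription, with 1 line per promoter and 1 mark per match. ERSE and ERSE-II lie on chaperone and degradation genes, CARE lies on ATF4 branch genes, and Herpud1 holds both CARE and ERSE-II.

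The expected counts came to 9098072 for the B16-F1 library, 7412840 for the Cloudman S91 library and 8968897 for the 4T1 library. Levels are given in FPKM, which divides the fragments of a gene by its length and by the size of the library, so genes can be compared with each other. The line labels were checked on marker genes: 7 melanocytic markers summed to 10208 FPKM in B16-F1, 8933 FPKM in Cloudman S91 and 7.08 FPKM in 4T1, where Tyrp1, Dct, Mlana and Sox10 were not listed. Tyr, at 102 FPKM in B16-F1, 4.99 FPKM in Cloudman S91 and 5.74 FPKM in 4T1, gave most of the 4T1 sum and was not higher in Cloudman S91 than in 4T1. The 7 simple epithelial markers summed to 0.51, 2.62 and 2089 FPKM in the same order, and Krt8 was not listed in either melanoma table. Leukocyte and endothelial markers summed to at most 0.55 FPKM in any line, and fibroblast markers to 1.76, 18.9 and 1.21 FPKM. Plasma and secretory cell markers, whose cells carry a strong chaperone program, summed to 26.2, 30.4 and 32.9 FPKM, nearly all from Sdc1 (26.0, 28.9 and 32.8 FPKM). A gene was called when its difference in log2(FPKM + 1) was at least 2, or 4-fold on that scale, and the gene reached FPKM 1 in either line of the pair. Since each line is 1 library, no difference has a replicate check, and intervals in brackets are 95% intervals of counting error only. Both comparisons with 4T1 share the 4T1 library. The melanocytic and epithelial markers separate the same libraries as the stress genes do, and their part in the results was not tested.

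The ATF4 branch was lower in both melanoma lines than in 4T1. Of its 16 members, 7 were called lower in B16-F1 than in 4T1, where 7.43% of 11547 genes were called lower, and 8 were called lower in Cloudman S91 than in 4T1, where 8.01% of 11657 genes were. None was called higher. The median difference over the 16 genes was -1.68 in B16-F1 and -1.90 in Cloudman S91, against 0.03 and -0.14 over all genes tested. All 16 had their highest FPKM in 4T1, as did 41.3% of all genes, and 7 were 4-fold lower in both melanoma lines, as were 5.57% of all genes. Rescaled to TPM (each library's FPKM made to sum to the same total), 15 of the 16 were highest in 4T1, against 28.8% of all genes, and the exception was Shmt2. On that scale 5 of the 16 were 4-fold lower in both melanoma lines, and the matching share of all genes was not computed.

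**Figure D2:**
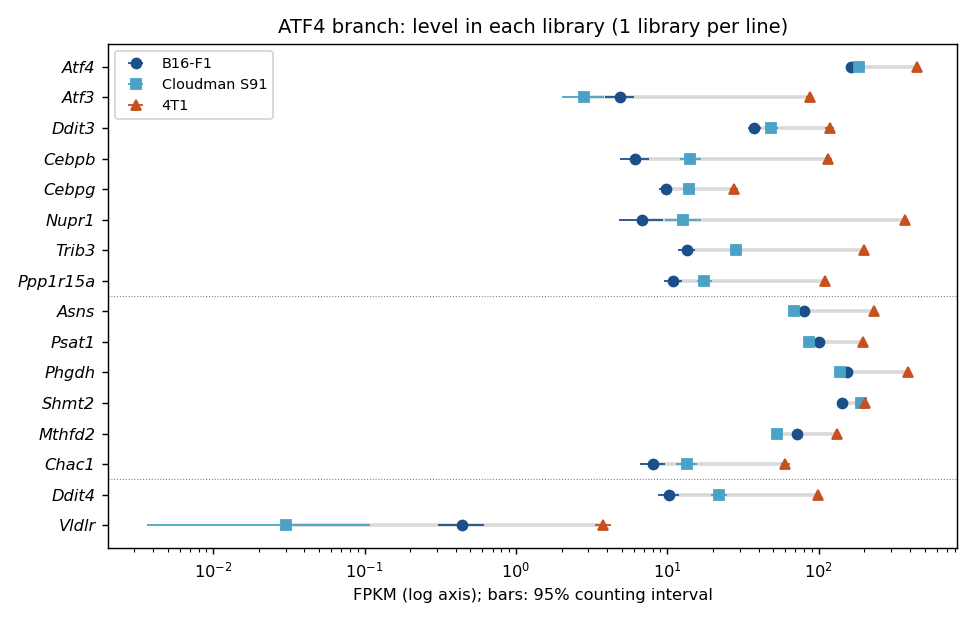
FPKM (log axis) of the 16 ATF4 branch genes, with 1 point per library (B16-F1, Cloudman S91, 4T1) and bars for 95% Poisson intervals of counting error. The 4T1 point is the rightmost for every gene, with a wide gap for Nupr1 (6.80, 12.7 and 371 FPKM) and a narrow one for Shmt2 (142, 190 and 202 FPKM).

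Atf4 itself (chr15:80255184-80257545) encodes the transcription factor at the centre of the branch and was among the more abundant members, at 164 FPKM in B16-F1, 185 FPKM in Cloudman S91 and 447 FPKM in 4T1. It was 2.72-fold lower in B16-F1 (2.59 to 2.85) and 2.41-fold lower in Cloudman S91 (2.30 to 2.53) than in 4T1, which did not reach the 4-fold rule. The melanoma lines lay close together, and 4T1 stood above both. ATF4 is controlled largely by translation, and protein was not measured.

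Of the transcription factors that act with or below ATF4, Atf3 and Cebpb were called and Cebpg and Ddit3 were not. Atf3 (chr1:191170296-191183333), an early stress factor, was at 4.85 FPKM in B16-F1, 2.80 FPKM in Cloudman S91 and 87.1 FPKM in 4T1, or 85, 40 and 1497 counts. It was 18.0-fold lower in B16-F1 (14.4 to 22.6) and 31.1-fold lower in Cloudman S91 (22.7 to 43.7) than in 4T1. Cebpb (chr2:167688915-167690432), a C/EBP factor that can pair with ATF4, was at 6.08 FPKM in B16-F1, 14.2 FPKM in Cloudman S91 and 116 FPKM in 4T1. It was 19.0-fold (15.2 to 24.1) and 8.16-fold (6.91 to 9.69) lower in these melanoma lines than in 4T1, so the order of the melanoma lines was the opposite of that for Atf3.

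Cebpg, which also pairs with ATF4, was at 9.77, 13.9 and 27.7 FPKM in B16-F1, Cloudman S91 and 4T1, and was not called. Ddit3 (CHOP, the factor linked to stress-induced cell death) was at 37.6 FPKM in B16-F1, 48.7 FPKM in Cloudman S91 and 119 FPKM in 4T1. It was 3.16-fold and 2.43-fold lower than in 4T1 in FPKM, which was not called. The length listed for Ddit3 was 1232 bases in B16-F1, 1306 bases in Cloudman S91 and 884 bases in 4T1, and in counts scaled to the library total, with no length, it was only 2.19-fold and 1.59-fold lower. It was the only member whose listed length differed by more than 1.2 times between tables.

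Nupr1 (chr7:126623246-126625470), a small stress-inducible nuclear protein, showed the widest gap in B16-F1 against 4T1 of all called members. It had 36 counts in B16-F1 (6.80 FPKM), 55 counts in Cloudman S91 (12.7 FPKM) and 1896 counts in 4T1 (371 FPKM). It was 54.5-fold lower in B16-F1 (39.2 to 78.1) and 29.1-fold lower in Cloudman S91 (22.3 to 38.8) than in 4T1. In 4T1 it ranked 184th of the 13188 named genes by FPKM, and it was the 59th most reduced of the 11547 genes tested in B16-F1 against 4T1.

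The feedback genes differed in the same way. Trib3 (chr2:152337425-152344060), a pseudokinase that restrains ATF4 and CHOP, was at 13.4 FPKM in B16-F1, 28.5 FPKM in Cloudman S91 and 199 FPKM in 4T1. It was 14.9-fold (13.1 to 17) and 7.0-fold (6.33 to 7.77) lower in these melanoma lines. Ppp1r15a (GADD34, chr7:45522917-45526268), the phosphatase subunit that restores eIF2 activity, was at 10.9 FPKM in B16-F1, 17.5 FPKM in Cloudman S91 and 109 FPKM in 4T1, which was 10.0-fold (8.76 to 11.6) and 6.24-fold (5.52 to 7.06) lower. In both genes Cloudman S91 lay between B16-F1 and 4T1. Over the 8 factors and feedback genes, 5 were called lower in each melanoma line than in 4T1 (7.43% and 8.01% of all genes). Their median difference was -3.51 in B16-F1 and -2.67 in Cloudman S91.

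Of the 6 metabolic genes of the branch, only Chac1 was called lower than in 4T1, in both melanoma lines (7.43% and 8.01% of all genes). The medians of the 6 were -1.14 in B16-F1 and -1.39 in Cloudman S91. Chac1 (chr2:119351242-119354326), which degrades glutathione, was at 8.05 FPKM in B16-F1, 13.5 FPKM in Cloudman S91 and 60.1 FPKM in 4T1. It was 7.46-fold (6.12 to 9.17) and 4.45-fold (3.74 to 5.33) lower, and the call in Cloudman S91 was lost under TPM. Asns (asparagine synthetase, chr6:7675165-7693209) was at 80.1 FPKM in B16-F1, 69.0 FPKM in Cloudman S91 and 232 FPKM in 4T1, that is 2.90-fold (2.72 to 3.08) and 3.36-fold (3.13 to 3.61) lower.

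The serine pathway enzymes came next. Phgdh, its first step, was at 154 FPKM in B16-F1, 138 FPKM in Cloudman S91 and 386 FPKM in 4T1, and Psat1, its next step, was at 100.2, 85.7 and 197 FPKM in the same order. For these and for Asns the melanoma lines were within 1.2-fold of each other. Of the mitochondrial folate enzymes, Mthfd2 was at 71.8, 52.9 and 133 FPKM, whereas Shmt2 was at 142 FPKM in B16-F1, 190 FPKM in Cloudman S91 and 202 FPKM in 4T1. Shmt2 was 1.42-fold lower in B16-F1 but only 1.07-fold lower in Cloudman S91 (1.02 to 1.12), where its difference of -0.09 turned to 0.36 under TPM, 0.04 with median-of-ratios scaling and 0.13 with upper-quartile scaling. Phgdh was the only member whose expected count was not whole (within 0.005) in every table, and other rows of the Cloudman S91 and 4T1 tables held reads of a gene like it.

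Of the other ATF4 targets, Ddit4 (REDD1, an inhibitor of mTORC1, chr10:59949675-59951770) was at 10.2 FPKM in B16-F1, 21.9 FPKM in Cloudman S91 and 98.8 FPKM in 4T1. It was 9.71-fold (8.21 to 11.6) and 4.51-fold (3.95 to 5.16) lower, and the call in Cloudman S91 was lost under TPM. Vldlr, a lipoprotein receptor, was low throughout, with 33 counts in B16-F1, 2 counts in Cloudman S91 and 276 counts in 4T1 (0.44, 0.03 and 3.75 FPKM). It was called in Cloudman S91 alone, where the ratio was 125-fold lower with an interval of 34.3 to 1037. Its difference in B16-F1, -1.72, fell short of the rule although the FPKM ratio was 8.52-fold, since the pseudocount of 1 shrinks the differences of low genes.

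The ATF4 branch genes with CARE in the promoter had a median difference of -3.28 in B16-F1 and -2.49 in Cloudman S91 against 4T1 (6 genes), and those without it had -1.43 and -1.29 (10 genes). The ranges overlapped: Asns, which has CARE, was at -1.52 in B16-F1, and Cebpb, which has none in this window, was at -4.04. Among genes without CARE, 3 of 10 were called lower in B16-F1 (Cebpb, Ppp1r15a and Ddit4), against 4 of 6 with it (7.43% of all genes). In Cloudman S91, 3 of 10 without CARE and 5 of 6 with it were called lower (8.01% of all genes). This is a description of a few genes in 1 library per line and was not tested.

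**Figure D3:**
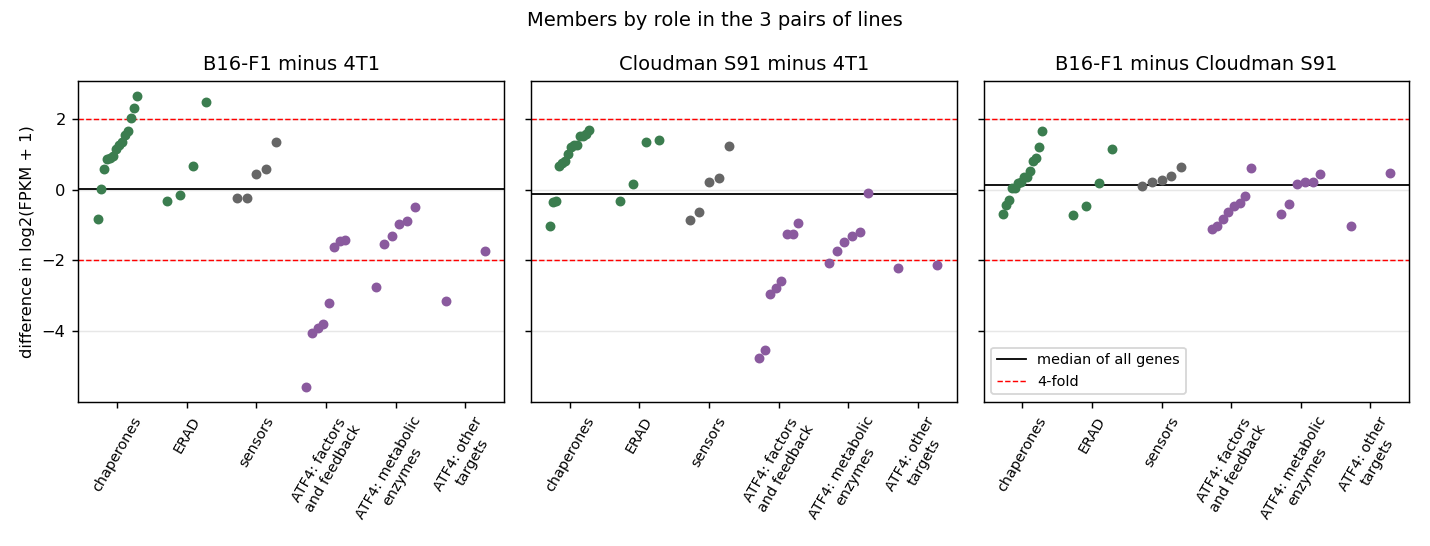
Differences in log2(FPKM + 1) of the 39 members by role, for B16-F1 minus 4T1, Cloudman S91 minus 4T1 and B16-F1 minus Cloudman S91. Dashed lines lie at the 4-fold rule (2 and -2), and solid lines at the median over all genes tested (0.03, -0.14 and 0.14). Against 4T1, ATF4 branch genes lie below 0 in both melanoma lines, and most chaperone and degradation genes lie above 0. The lowest chaperone point in both comparisons with 4T1 is Hspa5 (-0.82 and -1.03).

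The chaperone and degradation genes lay the other way, with smaller differences. Of the 18, 4 were called higher in B16-F1 than in 4T1, where 6.31% of all genes were called higher, and 0 were called in Cloudman S91 against 4T1, where 7.47% were called higher. The median difference was 1.06 in B16-F1 and 1.10 in Cloudman S91, against 0.03 and -0.14 over all genes. At 2-fold, 9 of 18 were higher in B16-F1 (18.5% of all genes higher, 18.9% lower) and 10 in Cloudman S91 (18% of all genes higher, 22.5% lower). The 1 gene 2-fold lower was Hspa5, in Cloudman S91. None of the 18 was 4-fold higher in both melanoma lines in FPKM, as 3.84% of all genes were. Under TPM 1 was, and the share of all genes was not computed on that scale. In FPKM 13 of the 18 were lowest in 4T1, as were 38.1% of all genes, and in TPM 17 of the 18, as were 51.6% of all genes. The exception in TPM was Hspa5.

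**Figure D4:**
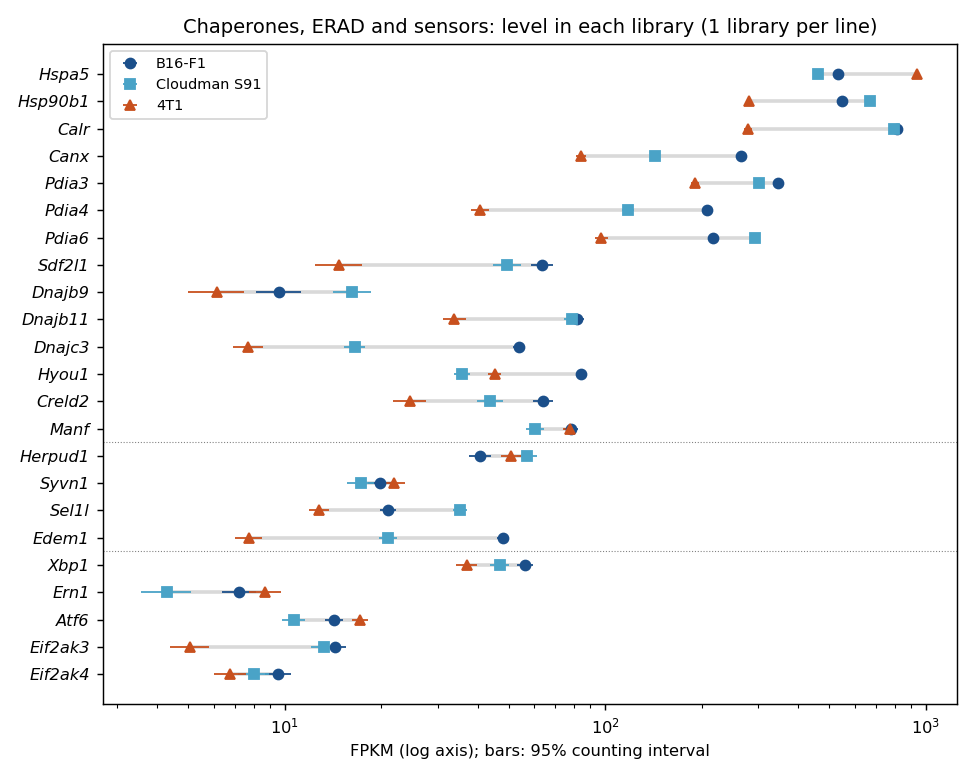
FPKM (log axis) of the 18 chaperone and degradation genes and 5 sensors, with 1 point per library (B16-F1, Cloudman S91, 4T1) and bars for 95% Poisson intervals of counting error. The 4T1 point is leftmost for 13 of the 18 chaperone and degradation genes and rightmost for Hspa5 (531, 460 and 938 FPKM) and Syvn1 (19.8, 17.3 and 21.9 FPKM).

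Hspa5 (BiP, chr2:34772090-34776529) is the ER member of the HSP70 family and the chaperone that holds the 3 sensors inactive. It was at 531 FPKM in B16-F1, 460 FPKM in Cloudman S91 and 938 FPKM in 4T1, 1.77-fold (1.73 to 1.81) and 2.04-fold (1.99 to 2.09) lower in the melanoma lines. Hsp90b1 (GRP94, chr10:86690841-86705444), the ER member of the HSP90 family, was at 548 FPKM in B16-F1, 669 FPKM in Cloudman S91 and 281 FPKM in 4T1. It was 1.95-fold (1.89 to 2.01) and 2.38-fold (2.31 to 2.45) higher, so the 2 large chaperones lay in opposite directions. Both hold ERSE, and its part in their levels was not tested. Within each library the ratio of Hspa5 to Hsp90b1 in FPKM, which no scaling of the library can move, was 0.968 in the B16-F1 library, 0.688 in the Cloudman S91 library and 3.34 in the 4T1 library.

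The lectin chaperones that hold glycoproteins were both higher in the melanoma lines. Calr was at 816 FPKM in B16-F1, 795 FPKM in Cloudman S91 and 279 FPKM in 4T1, and Canx, its membrane-bound relative, was at 266, 143 and 84.1 FPKM. Calr was 2.93-fold and 2.85-fold higher, and Canx 3.16-fold and 1.70-fold higher, and neither was called. Both differences of Calr were alike, while Canx separated the melanoma lines.

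Of the disulfide isomerases, which form disulfide bonds in the ER, Pdia4 (chr6:47796141-47813512) was called. It was at 208 FPKM in B16-F1, 118 FPKM in Cloudman S91 and 40.8 FPKM in 4T1, 5.09-fold (4.74 to 5.46) and 2.89-fold (2.68 to 3.12) higher, the second below the rule. Pdia3, which works with the lectin chaperones, was at 346, 302 and 191 FPKM, and Pdia6 at 217, 293 and 97.3 FPKM. Pdia6 was highest in Cloudman S91, while Pdia3 and Pdia4 were highest in B16-F1.

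Of the members that work with BiP, Dnajc3, Sdf2l1, Dnajb11 and Dnajb9 were lowest in 4T1 and Hyou1 was lowest in Cloudman S91 in FPKM. Dnajc3 (p58IPK, chr14:118937932-118981702), which is also known as an inhibitor of PERK, was at 53.8 FPKM in B16-F1, 16.5 FPKM in Cloudman S91 and 7.69 FPKM in 4T1. It was 6.99-fold higher in B16-F1 (6.25 to 7.84), the largest ratio in the branch, and 2.15-fold higher in Cloudman S91 (1.88 to 2.46). Sdf2l1 (chr16:17130138-17132383), a partner of Dnajb11, was at 63.7 FPKM in B16-F1, 49.4 FPKM in Cloudman S91 and 14.8 FPKM in 4T1, with 615, 389 and 139 counts.

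Sdf2l1 was 4.31-fold (3.58 to 5.22) and 3.34-fold (2.75 to 4.09) higher, and its call in B16-F1 was lost with median-of-ratios scaling or a pseudocount of 5. Dnajb11 (ERdj3), which binds unfolded clients for BiP, was at 81.8, 78.7 and 33.9 FPKM, and Dnajb9 (ERdj4), a co-chaperone that represses IRE1, was at 9.59, 16.2 and 6.14 FPKM. Hyou1 (GRP170), the nucleotide exchange factor of BiP, was at 84.1 FPKM in B16-F1, 35.9 FPKM in Cloudman S91 and 45.3 FPKM in 4T1. It was 1.86-fold higher in B16-F1 but 1.26-fold lower in Cloudman S91, where its difference of -0.33 turned to 0.12 under TPM.

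The secreted ER stress proteins did not move together. Creld2 was at 64.1 FPKM in B16-F1, 43.8 FPKM in Cloudman S91 and 24.6 FPKM in 4T1. Manf was at 78.1, 60.6 and 77.8 FPKM, and its ratio of B16-F1 to 4T1 was 1.0 (0.935 to 1.08). In FPKM the ratio of Manf to Sdf2l1 was 1.23 in the B16-F1 library, 1.23 in the Cloudman S91 library and 5.27 in the 4T1 library.

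The 4 genes of ER-associated degradation were uneven. Edem1 (chr6:108824045-108859356), a lectin that hands misfolded glycoproteins to degradation, was at 47.9 FPKM in B16-F1, 21.1 FPKM in Cloudman S91 and 7.72 FPKM in 4T1. It was 6.20-fold higher in B16-F1 (5.58 to 6.91), which was called, and 2.73-fold higher in Cloudman S91 (2.42 to 3.07), which was not. Sel1l, the adaptor of the ubiquitin ligase, was at 21.0, 35.3 and 12.8 FPKM and was highest in Cloudman S91.

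Syvn1 (HRD1), the ligase itself, was at 19.8 FPKM in B16-F1, 17.3 FPKM in Cloudman S91 and 21.9 FPKM in 4T1, and Herpud1, which joins the ligase complex, was at 40.7, 57.0 and 50.9 FPKM. The 2 subunits of 1 complex thus had different orders, with Sel1l lowest and Syvn1 highest in 4T1 in FPKM. Under TPM Syvn1 turned to lie above 4T1 in both melanoma lines (0.22 and 0.11). Herpud1 holds both CARE and ERSE-II, and its differences were small, at -0.32 in B16-F1 (0.04 under TPM) and 0.16 in Cloudman S91.

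The element in the promoter did not separate the chaperone and degradation genes. Those with ERSE or ERSE-II had a median difference of 1.2 in B16-F1 and 0.91 in Cloudman S91 against 4T1 (10 genes), and those without had 1.45 and 1.37 (6 genes). Of the 4 genes called in B16-F1, only Dnajc3 held an element in this window.

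None of the 5 sensors and kinases was called in any comparison, and their medians were 0.44 in B16-F1 and 0.22 in Cloudman S91 against 4T1. Eif2ak3 (PERK) was at 14.4 FPKM in B16-F1, 13.3 FPKM in Cloudman S91 and 5.07 FPKM in 4T1, 2.83-fold (2.41 to 3.34) and 2.62-fold (2.21 to 3.10) higher. Ern1 (IRE1) was at 7.22, 4.29 and 8.68 FPKM, and Atf6 was at 14.3, 10.7 and 17.2 FPKM. The messenger of PERK was thus lowest in 4T1, the line with the highest ATF4 branch, while those of Ern1 and Atf6 were highest there in FPKM.

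In FPKM, Eif2ak3 over Ern1 was 1.99 in the B16-F1 library (1.71 to 2.31), 3.09 in the Cloudman S91 library (2.53 to 3.80) and 0.584 in the 4T1 library (0.487 to 0.700). Eif2ak4 (GCN2) was at 9.53, 8.0 and 6.75 FPKM. Xbp1, summed over its spliced and unspliced forms, which gene-level values do not separate, was at 56.3 FPKM in B16-F1, 46.9 FPKM in Cloudman S91 and 37.0 FPKM in 4T1. Under TPM Ern1 and Atf6 turned to lie above 4T1 in B16-F1 (0.10 each). Phosphorylation, cleavage and splicing of the sensors were not measured.

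Summed over genes, the ATF4 branch came to 820 FPKM in B16-F1, 895 FPKM in Cloudman S91 and 2788 FPKM in 4T1. The chaperone and degradation genes came to 3497 FPKM in B16-F1, 3211 FPKM in Cloudman S91 and 2214 FPKM in 4T1. The ratio of the first sum to the second was 0.235, 0.279 and 1.26. Without Hspa5, an alternative chosen after its values were seen, the chaperone sum was 2966, 2751 and 1276 FPKM and the ratio was 0.277, 0.325 and 2.18. As shares of all expected counts, the ATF4 branch held 0.157% in the B16-F1 library (Wilson interval 0.154 to 0.159), 0.170% in the Cloudman S91 library (0.167 to 0.173) and 0.465% in the 4T1 library (0.460 to 0.469). The chaperone and degradation genes held 0.907% (0.901 to 0.913), 0.794% (0.787 to 0.80) and 0.560% (0.555 to 0.565) in the same order. In a bulk library, fewer cells that respond and less RNA per cell cannot be told apart.

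**Figure D5:**
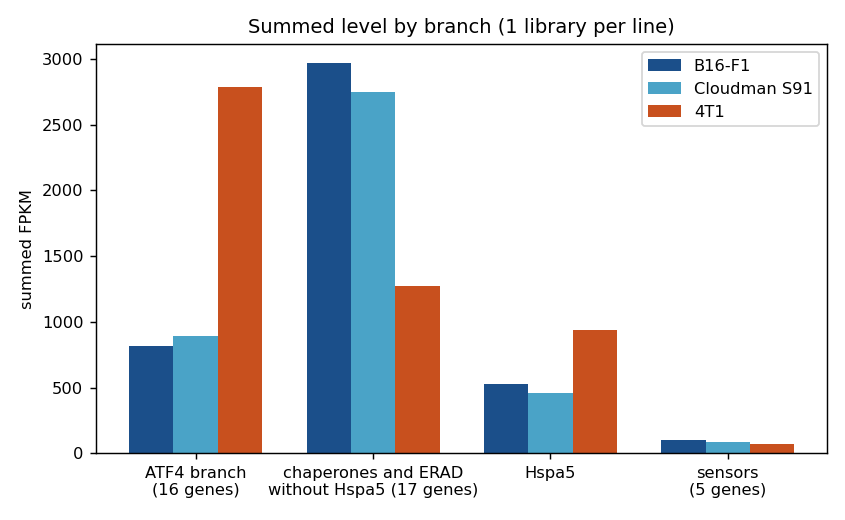
Summed FPKM of the ATF4 branch (16 genes) and of the chaperone and degradation genes (18 genes, with Hspa5 drawn apart) in B16-F1, Cloudman S91 and 4T1, 1 library each. The ATF4 sum is 820, 895 and 2788 FPKM, and the chaperone and degradation sum is 3497, 3211 and 2214 FPKM.

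Within the ATF4 branch, levels were also set against Atf4 inside each library, in FPKM. Trib3 over Atf4 was 0.0817 in the B16-F1 library (0.0713 to 0.0932), 0.154 in the Cloudman S91 library (0.138 to 0.171) and 0.446 in the 4T1 library (0.428 to 0.465). Asns over Atf4 was 0.487, 0.372 and 0.519. Ddit3 over Atf4 was 0.228 in B16-F1 (0.205 to 0.254), 0.263 in Cloudman S91 (0.237 to 0.291) and 0.265 in 4T1 (0.247 to 0.285). The listed length of Ddit3 differed between lines, as given above. The counting intervals of Trib3 over Atf4 did not overlap between any 2 lines, while those of Ddit3 over Atf4 overlapped between all lines. Those of Asns over Atf4 overlapped between B16-F1 and 4T1.

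Between the melanoma lines no member was called, where 2.33% of 11133 genes were higher and 3.19% lower in B16-F1 than in Cloudman S91 at 4-fold. The median difference was -0.41 over the ATF4 branch and 0.20 over the chaperone and degradation genes, against 0.14 over all genes. At 2-fold (10.9% of all genes higher, 9.11% lower), Cebpb (2.33-fold), Trib3 (2.12-fold) and Ddit4 (2.15-fold) were lower in B16-F1. Dnajc3 (3.25-fold, 2.98 to 3.55), Hyou1 (2.35-fold) and Edem1 (2.28-fold) were higher in B16-F1. Of the 8 ATF4 factors and feedback genes, 7 were lower in B16-F1 than in Cloudman S91, with Atf3 the exception, and the median was -0.56. The median over the 6 metabolic genes was 0.18, near the 0.14 over all genes, so no opposite direction is read from them. The metabolic genes above 0 were Asns, Psat1, Phgdh and Mthfd2. Among these, Phgdh turned with median-of-ratios scaling (-0.03) or upper-quartile scaling (-0.02), and its difference of 0.15 turned to -0.74 when rows without a symbol were added.

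The rest of these pathways was described from 9 other gene lists. The aminoacyl-tRNA synthetases, which charge tRNAs and include known ATF4 targets, lay mostly to one side. Of 20, 17 lay below 4T1 in each melanoma line. The median difference was -0.87 in B16-F1 and -0.58 in Cloudman S91, against 0.03 and -0.14 over all genes. At 2-fold, 7 and 8 were lower, as were 18.9% and 22.5% of all genes. Under TPM 14 and 12 of the 20 lay below 4T1, with medians of -0.51 and -0.13 against 0.38 and 0.31 over all genes. Only Vars was called, in Cloudman S91, at 81.6 FPKM in B16-F1, 49.3 FPKM in Cloudman S91 and 235 FPKM in 4T1. Of 14 further serine and one-carbon enzymes, 13 were tested in B16-F1 and 12 in Cloudman S91 against 4T1. In B16-F1, 1 was called higher and 2 lower (6.31% and 7.43% of all genes). In Cloudman S91, 1 was called higher and 2 lower (7.47% and 8.01% of all genes). These are small counts, and nothing is read from them about the list. Psph, the last step of serine synthesis, was at 22.9 FPKM in B16-F1, 19.2 FPKM in Cloudman S91 and 122 FPKM in 4T1, so all 3 steps of that pathway were highest in 4T1. Mthfd2l, a relative of Mthfd2, was at 0.15, 0.24 and 14.5 FPKM, and Aldh1l2, a mitochondrial folate enzyme, was at 6.90, 18.8 and 2.63 FPKM.

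The other ER lists held few calls. Among 30 further ER chaperones and oxidases tested, 3 were called higher in B16-F1 than in 4T1 (6.31% of all genes) and 2 in Cloudman S91 than in 4T1 (7.47% of all genes), with none lower. These are small counts, and nothing is read from them about the list. The median difference of these 30 genes against 4T1 was 0.49 in B16-F1 (20 higher, 10 lower). In Cloudman S91 it was 0.10 (16 higher, 14 lower), where the median of the 18 chaperone and degradation members was 1.10. The medians over all genes were 0.03 and -0.14. Ero1l, the oxidase that recharges the disulfide isomerases, was at 129 FPKM in B16-F1, 48.9 FPKM in Cloudman S91 and 25.8 FPKM in 4T1. Fkbp10, a collagen-folding isomerase, was at 3.47 FPKM in B16-F1 and 41.2 FPKM in Cloudman S91 and was not listed in 4T1. Of 25 further degradation genes, only Edem3, a relative of Edem1, was called, as higher in Cloudman S91 than in 4T1 (7.47% of all genes). Edem3 was at 18.5, 22.7 and 4.48 FPKM in B16-F1, Cloudman S91 and 4T1. The median difference of the 25 genes against 4T1 was 0.32 in B16-F1 (16 higher, 9 lower) and 0.17 in Cloudman S91 (13 higher, 12 lower).

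Of 17 further sensors and ER membrane factors, 1 was called higher in each melanoma line than in 4T1 (6.31% and 7.47% of all genes). It was Creb3l2, a membrane-bound transcription factor of secretory cells, at 33.5 FPKM in B16-F1, 16 FPKM in Cloudman S91 and 1.81 FPKM in 4T1. Among 29 translocon and signal peptide genes, Srp54a was called higher in B16-F1 than in 4T1 (6.31% of all genes). Srp9 and Srpr were called lower in Cloudman S91 than in 4T1 (8.01% of all genes). Between the melanoma lines 27 of these 29 were higher in B16-F1 than in Cloudman S91 (25 or more under every scaling). Their median was 0.75 against 0.14 over all genes, and Srp9 was called higher (2.33% of all genes). Srp54a has near-identical copies and its value is uncertain. Srp9, of the signal recognition particle, was at 52.0, 10.1 and 59.8 FPKM, and Srpr, its receptor, was at 72.9, 32.1 and 133 FPKM. None of 13 genes for eIF2, eIF2B, their phosphatase and related factors was called in any pair. The same held for 14 mitochondrial chaperones and proteases. Between 2.33% and 8.01% of all genes were called in each direction of a pair. With lists this small, nothing is read about them from the numbers called.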

How the data were processed

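Polyadenylated RNA of 3 mouse tumour lines was sequenced, with 1 library per line. The deposited tables hold, per the file headers, for each gene an expected count (reads as estimated by the authors' program, not normalised), an FPKM value and a length. The authors' FPKM values are scaled to the library and to length. HISAT, StringTie (both without versions) and build mm10 are named in the submitters' processing notes. Which program counted the reads is not given in the sources read. Columns were assigned to lines by the name of the table that holds them. Rows without a symbol were left out (2.36%, 2.24% and 4.32% of the counts in B16-F1, Cloudman S91 and 4T1). A gene a table does not list was taken as 0.

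Computed here (Python 3.11.15, numpy 2.4.6, pandas 2.3.3, scipy 1.17.1) were differences in log2(FPKM + 1), called at 2 or more where a gene reached FPKM 1 in either line of the pair, and fold changes as ratios of deposited FPKM. With no replicates, no p-value was computed. Exact 95% Poisson intervals, conditional binomial intervals for ratios and Wilson intervals for shares come from rounded expected counts and cover counting error only. The calling rule was checked only on Poisson copies of 1 library, with 8-fold changes set in well-expressed genes. This does not check 4-fold calls between different lines. The ratio interval was checked on simulated Poisson counts. All 39 members are named. From each of 9 other pathway lists, up to 4 genes past the rule with FPKM 10 or more in some line and the largest difference in any pair are named, and 6 marker lists check the cell types. The members and lists were chosen with earlier results of these data known. Alternatives were pseudocounts of 0.1 and 5, no FPKM minimum or one of 5, TPM, median-of-ratios and upper-quartile scaling, counts scaled to the library, 2-fold and 8-fold rules, and adding rows without a symbol. RefSeq GRCm38.p6, the same primary sequence as mm10, gave the sequences and positions.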

Additional observations from a re-analysis of the deposited data

Results flagged for a closer look

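Rows with no gene symbol in the deposited tables, outside the comparisons above, held reads of a gene like Phgdh. They share its KEGG number, which names its enzyme class. In Cloudman S91, 3 such rows held 295.94 expected counts, 13.7% of their sum with the named Phgdh row. In 4T1, 4 such rows held 1001.03 expected counts, 13.8% of the sum. No such row was listed in the B16-F1 table. With these rows added, Phgdh scaled to the library total (CPM) came to 279 CPM in B16-F1, 291 CPM in Cloudman S91 and 808 CPM in 4T1, against 279, 251 and 697 CPM for the named rows alone. It stayed lower in both melanoma lines than in 4T1. The order of the melanoma lines turned. In FPKM, where these rows are short (203 to 780 bases) and weigh more, adding them moved the difference of Phgdh to -2.01 in B16-F1 minus 4T1, which passes the 4-fold rule, against -1.32 for the named row. In Cloudman S91 minus 4T1 it moved to -1.27, against -1.48.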

How the results depend on the processing

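No paired analysis was possible because each line is 1 library, and for the same reason no replicate could be left out. No called difference of a member reversed under any alternative. Of 19 called differences, 17 were kept under TPM, 16 with median-of-ratios scaling, 17 with upper-quartile scaling, 15 with a pseudocount of 5, 18 with an FPKM minimum of 5, and 19 with a pseudocount of 0.1, no minimum, library-scaled counts or rows without a symbol added. Those lost were Chac1, Ddit4 and Vldlr in Cloudman S91 against 4T1 and Sdf2l1 in B16-F1 against 4T1.

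The number of ATF4 branch members called in B16-F1 against 4T1 was 7, and 13 at 2-fold. In Cloudman S91 against 4T1 it was 8, with 14 at 2-fold, 2 at 8-fold and 5 with a pseudocount of 5. In B16-F1 against Cloudman S91 it was 0, and 3 at 2-fold. For chaperone and degradation genes the number in B16-F1 against 4T1 was 4, with 9 at 2-fold and 0 at 8-fold. In Cloudman S91 against 4T1 it was 0, with 11 at 2-fold, 2 under TPM, and 2 under TPM without the 50 most abundant genes (chosen after seeing the data). In B16-F1 against Cloudman S91 it was 0, and 3 at 2-fold.

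TPM moved the median over all genes to 0.38 for B16-F1 and 0.31 for Cloudman S91 against 4T1, and the share of all called genes that were higher to 56.7% and 59.9%, against 45.9% and 48.3% in FPKM. The FPKM values of the 4T1 library summed to 601329, above the 466033 of B16-F1 and the 439437 of Cloudman S91. On the log2 scale the melanoma sums lay at -0.37 (B16-F1) and -0.45 (Cloudman S91) against the 4T1 sum. TPM makes the sums equal and so takes out these offsets, which raises the melanoma values against 4T1. Why the FPKM sums differ was not tested. Depth limits Vldlr, with 2 counts in Cloudman S91, and Nupr1 and Atf3, with 36 and 40 counts in their lowest library.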

Other observations

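Of further ATF4 targets outside the 39, 29 were tested in B16-F1 against 4T1, where 2 were called higher and 8 lower (6.31% and 7.43% of all genes). In Cloudman S91 against 4T1, 30 were tested, and 2 were called higher and 5 lower (7.47% and 8.01% of all genes). The medians of the 2 comparisons were -1.17 and -0.72. Between the melanoma lines, 1 was called higher and 3 lower in B16-F1 than in Cloudman S91 (2.33% and 3.19% of all genes). Under TPM the medians against 4T1 were -0.85 and -0.28. The list also holds Ero1l, counted above among the oxidases. Gdf15, a secreted stress cytokine, was not listed in B16-F1 and was at 11.8 FPKM in Cloudman S91 and 0.55 FPKM in 4T1. In Cloudman S91 against 4T1 it thus lay opposite to Atf3 and Trib3. Stc2, a secreted glycoprotein, was not listed in B16-F1 and was at 10.8 FPKM in Cloudman S91 and 27.3 FPKM in 4T1. Slc7a11, the cystine transporter, was at 10.1 FPKM in B16-F1, 2.89 FPKM in Cloudman S91 and 42.1 FPKM in 4T1. Cth, which makes cysteine from cystathionine, was at 3.87 FPKM in B16-F1, 0.08 FPKM in Cloudman S91 (1 count) and 57.1 FPKM in 4T1. Slc7a11 and Cth were thus lowest in Cloudman S91, whereas Gdf15 was highest there. These genes were picked by size of difference, and the other genes of the list did not all share either order.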
